A study of Homo sapiens with 8 samples.

Results

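Libraries from HCT-116 cells, an established human colorectal cancer line, were compared gene by gene to ask what 3-MB-PP1 did to cells that had first been exposed to 5-fluorouracil (5-FU). The members of the comparison were all genes with enough counts: 15704 of the 23864 genes in the tables, measured in 4 of the 8 libraries of the series. The test group (2 libraries) received 40 µM 5-FU for 12 h, was washed, and then received 2.5 µM 3-MB-PP1 for 4 h, and is called 5-FU then 3-MB-PP1. The reference group (2 libraries) received the same 5-FU and wash and then DMSO, the solvent, for 4 h, and is called 5-FU alone (its libraries are 5-FU then DMSO replicates 1 and 2). Both groups therefore carried the 5-FU exposure, and the difference between them was 4 h of 3-MB-PP1. The other 4 libraries received DMSO for 12 h and then DMSO (2 libraries, called DMSO) or 3-MB-PP1 (2 libraries, called 3-MB-PP1 alone). The labels number the replicates without saying that they were separate cultures, so p-values measure only the spread between these libraries, which may be technical. The labels name no kinase allele and no clone of HCT-116.

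5-FU is a fluorinated pyrimidine that blocks thymidylate synthase and enters RNA and DNA, and in cells with working p53, which HCT-116 cells have, it activates the p53 transcription factor. 3-MB-PP1 is a bulky ATP analogue made to inhibit kinases whose ATP pocket has been enlarged by mutation, and the series title concerns inhibitors of CDK7. CDK7, with cyclin H and MAT1, forms the kinase module of the general transcription factor TFIIH, which phosphorylates RNA polymerase II at the start of genes and activates the cell cycle kinases. Transcripts that are made and destroyed quickly follow a change in synthesis within hours, whereas long-lived transcripts follow it slowly.

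Each library held 10574421 to 50472779 counts over genes, and the 4 libraries of the comparison held 12600067 to 16752761. Levels are given in CPM, a gene's count scaled to a common library size after TMM normalisation, library by library, and changes as log2 fold changes ± their standard error (SE) from edgeR's quasi-likelihood test, with Benjamini-Hochberg adjusted p over all 15704 genes. A gene is said to have risen or fallen only where the adjusted p was under 0.05. Such levels are shares of a library: a change common to all genes does not show, and in bulk RNA fewer cells of a type and less RNA per cell cannot be told apart. The ERCC spike-ins took 2.18% to 4.16% of the library totals and differed as much within groups as between them. Scaled to the spike-ins, the median of all genes was -0.12 in place of 0.00, and 53 genes remained called, 41 higher and 12 lower, so all changes below are relative to the other genes. Of the genes that had risen or fallen, 5165 kept their sign under that scaling. The 10 epithelial markers summed to 2790 to 4938 CPM over the 8 libraries, although VIL1 was at 0 to 0.309 CPM. Of the markers of fibroblasts, leukocytes and endothelium, COL1A2, DCN, LUM and CDH5 had no count in any library. COL1A1 (11.8 to 20 CPM), LYZ (6.58 to 9.07), CD68 (6.02 to 7.51) and PECAM1 (4.8 to 7.56) were detected in all of them. The 4 endothelial markers summed to 6.518 and 7.14 CPM after 5-FU alone and to 8.391 and 8.649 CPM with 3-MB-PP1 added. Among these 4, KDR was higher with 3-MB-PP1 (0.988 and 0.96 then 3.01 and 3.48 CPM). PECAM1 was not (5.14 and 5.64 then 5.14 and 5.1 CPM), and VWF was lower (0.395 and 0.54 then 0.237 and 0.0772 CPM). The 6 fibroblast markers summed to 19.14 to 20.15 and then 16.07 to 19.15 CPM, and the 6 leukocyte markers to 15.96 to 16.59 and then 14.6 to 15.04 CPM. The part of other cells in any change was not tested.

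Treatment with 3-MB-PP1 for 4 h changed many transcripts of 5-FU-treated cells by small amounts and a smaller number by more than 2-fold. Of the 15704 genes, 5169 (32.9%) were called: 2467 rose (15.7%) and 2702 fell (17.2%). The 2 libraries of one group did not overlap those of the other for 2464 of the genes that rose and for 2696 of those that fell. A call at this threshold nearly always goes with such a gap, and the share over all tested genes was not computed. These counts therefore add no support to the calls. More than 2-fold rises numbered 330 (2.1%) and more than 2-fold falls 212 (1.35%), while 102 genes rose and 14 fell more than 4-fold. Genes other than small RNAs and unnamed loci were divided into 5 groups of equal number by mean level over the 4 groups. In the lowest group (up to 4.144 CPM) 265 of 2944 genes rose and 64 fell by more than 2-fold, and in the highest (from 78.28 CPM) 1 rose and 13 fell. Low genes entered the test only where at least 1 group held enough counts, which bears on the first of these numbers. The plot of change against level shows this shape.

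**Figure D1:**
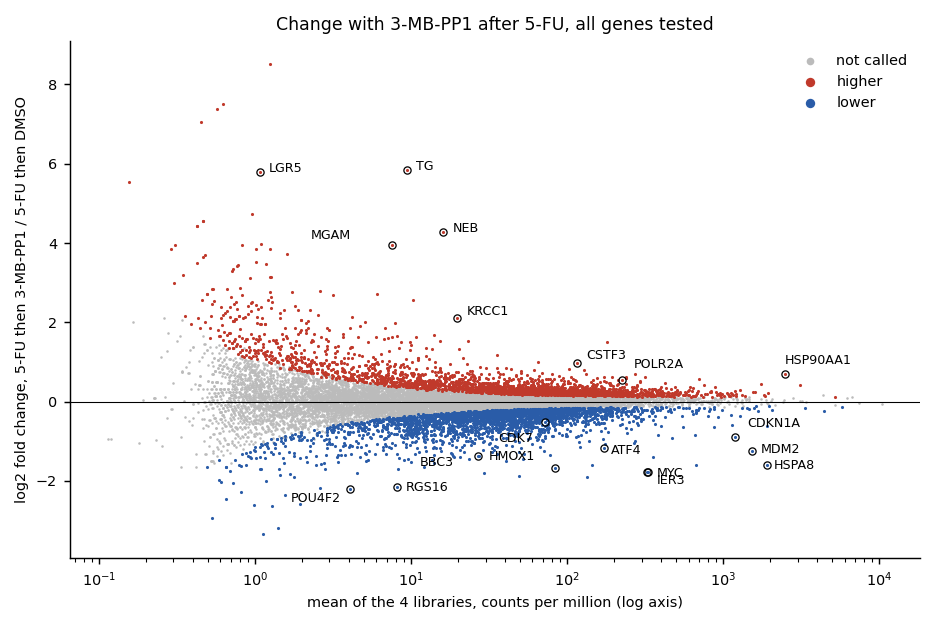
Change with 3-MB-PP1 after 5-FU for the 15704 genes tested. Each point is a gene, placed by its mean level over the 4 libraries (CPM, log axis) and its log2 fold change over 5-FU alone; red points rose, blue points fell and grey points were not called. TG, LGR5, NEB and MGAM, among the largest rises, sit at low levels, and transcripts above 100 CPM changed mostly downward where they changed by more than 2-fold (HSPA8, MYC, IER3, MDM2).

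Several p53 targets that arrest the cell cycle or feed back on p53 fell. MDM2, the ubiquitin ligase that p53 induces and that destroys p53 (chr12:69201971-69239320, plus strand, hg19), stood at 2060.3 and 2212 CPM after 5-FU alone and at 889.9 and 911 CPM with 3-MB-PP1 added. Its change was -1.25 ± 0.05 (adjusted p = 3.5e-16). CDKN1A, which encodes the cyclin-dependent kinase inhibitor p21 (chr6:36646487-36655116, plus strand, hg19), stood at 1586 and 1492 CPM and then at 849 and 817 CPM. Its change was -0.89 ± 0.05 (adjusted p = 2.6e-13). In both genes the libraries of 5-FU then 3-MB-PP1 lay below those of 5-FU alone and above the DMSO means of 438 CPM for MDM2 and 195 CPM for CDKN1A. PLK2, a polo-like kinase, went from 601 and 630.2 to 327 and 328 CPM (-0.91 ± 0.05, adjusted p = 5.7e-13). BTG1, an antiproliferative gene whose span overlaps another gene, fell by a similar amount (-1.0 ± 0.11).

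In the list of p53 arrest and feedback genes, 7 of 20 tested members fell and 3 rose (17.2% and 15.7% of all genes). The share that rose was thus close to that of all genes. The list median was -0.06 against 0.00 for all genes. The 3 that rose were CCNG1 (cyclin G1, 0.31 ± 0.06), CCNK (cyclin K, which overlaps another gene, 0.33 ± 0.08) and E2F7 (a transcriptional repressor of cell cycle genes, 0.32 ± 0.09). E2F7 was no longer called without 5-FU then 3-MB-PP1 replicate 2, without 5-FU then DMSO replicate 2, or by DESeq2 (adjusted p up to 0.16).

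The p53 targets that act in cell death split by gene. BBC3, which encodes the BH3-only killer protein PUMA, stood at 40.3 and 37.3 CPM after 5-FU alone and at 14.9 and 15.1 CPM with 3-MB-PP1 against 11.4 and 9.6 CPM in DMSO. Its change was -1.37 ± 0.11 (adjusted p = 1.6e-09), the largest fall of the 20 tested p53 apoptosis genes. PMAIP1, which encodes the killer protein NOXA, rose from 63.2 and 71.5 to 73.3 and 84.3 CPM (0.23 ± 0.07, adjusted p = 0.021). That call was lost without 5-FU then DMSO replicate 1 (0.13, adjusted p = 0.27), without 5-FU then 3-MB-PP1 replicate 2 (0.11, adjusted p = 0.42) and by DESeq2. TNFRSF10D, a decoy receptor for the death ligand TRAIL, rose from 206 and 212 to 342 and 335 CPM (0.69 ± 0.05, adjusted p = 1.4e-10). Of the TRAIL receptor genes that carry the death signal, TNFRSF10A fell (-0.41 ± 0.07) and TNFRSF10B, which overlaps another gene, was not called (-0.05 ± 0.05, adjusted p = 0.49). FAS, another death receptor with an overlapping neighbour, stood at 114 and 122 and then 103 and 101 CPM (-0.20 ± 0.06, adjusted p = 0.015), a call lost by DESeq2 and without 5-FU then DMSO replicate 2 or either library of 5-FU then 3-MB-PP1 (adjusted p up to 0.14). BAX, the pore-forming protein of mitochondria, was not called (-0.05 ± 0.07, adjusted p = 0.62). In all, 8 of 20 p53 apoptosis genes fell and 3 rose (17.2% and 15.7% of all genes), and the median was -0.16. The last that rose was PERP (0.19 ± 0.06, lost without 5-FU then DMSO replicate 1 or 5-FU then 3-MB-PP1 replicate 2).

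Members of the list of other p53 targets moved in both directions. LIF, a cytokine, went from 61.4 and 59.6 to 26.5 and 29.7 CPM (-1.11 ± 0.08, adjusted p = 9.3e-11), beside 27.7 and 28.7 CPM in DMSO. GDF15, a stress-induced member of the TGF-beta family, went from 227 and 203 to 141 and 132 CPM (-0.66 ± 0.06, adjusted p = 2.8e-08) and stayed above its DMSO mean of 31.7 CPM. The receptor gene NOTCH1 (-0.87 ± 0.07) and the repressor gene PRDM1 (-0.72 ± 0.19) fell as well, PRDM1 not by DESeq2 (adjusted p = 0.096). The phosphatase genes DUSP5 (-0.37 ± 0.06) and DUSP4 (-0.25 ± 0.05) fell less.

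In that list no direction prevailed. At a median of 0.03, 11 of 35 tested members rose and 10 fell (15.7% and 17.2% of all genes). That median was below 0 under spike-in scaling (-0.09) and as low as -0.02 in other settings. Its highest member, picked out after the values were seen, was C12orf5 (now named TIGAR, a fructose bisphosphatase), which went from 132 and 138 to 212 and 205 CPM (0.63 ± 0.06, adjusted p = 2e-08). The panels of levels by library set the DMSO groups beside these values; 5-FU alone is a reference of both the 5-FU effect and the effect studied here, so no relation between these effects was computed.

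**Figure D2:**
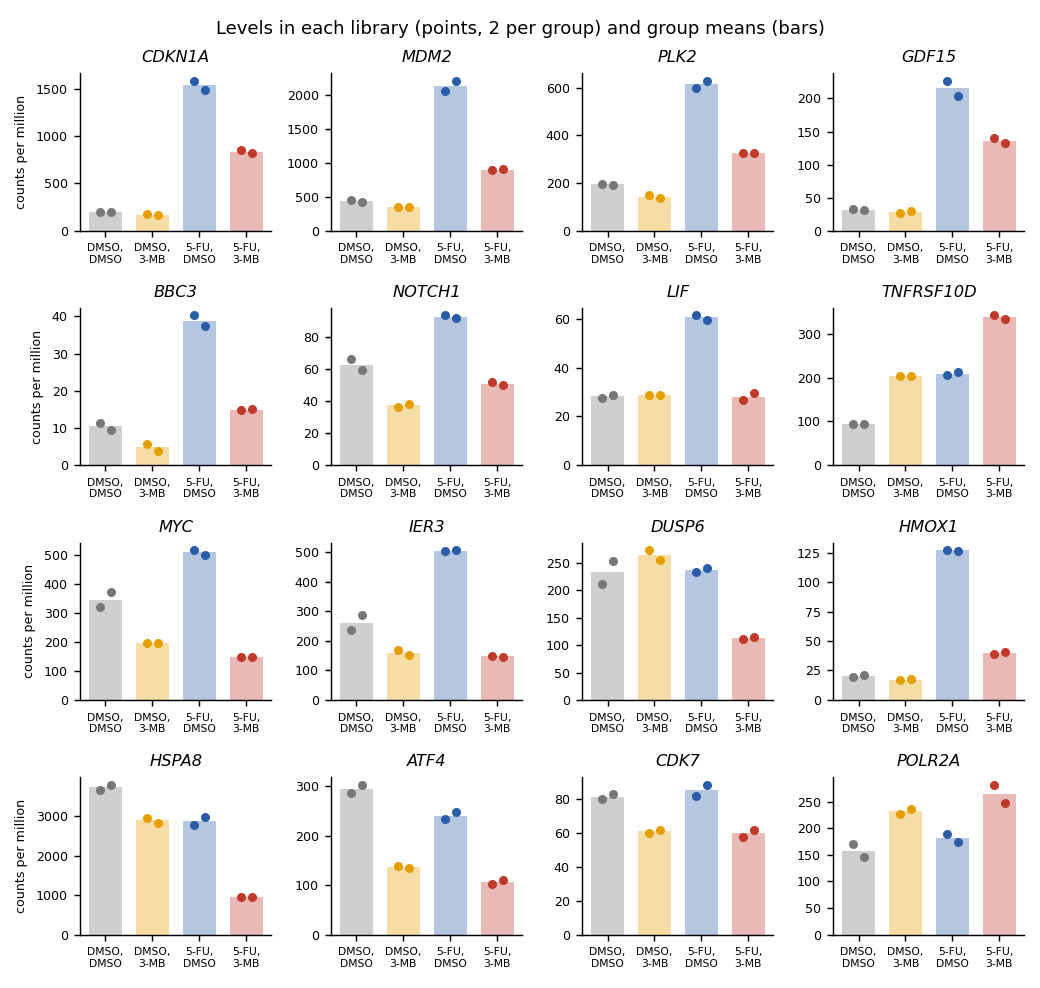
Levels of 16 genes in all 8 libraries. Points are libraries (2 per group), bars are group means in CPM, and the axis of each panel starts at 0; the groups are DMSO then DMSO, DMSO then 3-MB-PP1, 5-FU then DMSO and 5-FU then 3-MB-PP1. With 3-MB-PP1 after 5-FU, LIF overlapped its DMSO libraries, and CDKN1A, MDM2 and GDF15 lay between 5-FU alone and DMSO. MYC, IER3, DUSP6, HSPA8 and ATF4 lay below the DMSO libraries, and HSPA8 and ATF4 already did so after 5-FU alone.

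Immediate early genes, whose short-lived transcripts encode transcription factors and feedback regulators of growth signalling, mostly fell. Of 38 tested members 25 fell and 2 rose (17.2% and 15.7% of all genes), and 10 fell more than 2-fold (1.35% of all genes). The median was -0.54 (-0.65 under spike-in scaling) against 0.00 for all genes. MYC, the growth-promoting transcription factor, stood at 516 and 499 CPM after 5-FU alone and at 146 and 149 CPM with 3-MB-PP1 (-1.78 ± 0.06, adjusted p = 3.6e-17). IER3, an early response gene of stress and survival signalling, went from 503 and 507 to 148 and 146 CPM (-1.78 ± 0.07, adjusted p = 4.4e-16). For both genes the libraries with 3-MB-PP1 were also below the DMSO means, 345 CPM for MYC and 261 CPM for IER3. JUN, a subunit of the AP-1 factor, went from 30.5 and 28.9 to 14 and 13.8 CPM (-1.09 ± 0.10, adjusted p = 2e-08).

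The NOTCH effector HES1 (-1.45 ± 0.17), the RNA decay factor ZFP36 (-1.39 ± 0.13), the phosphatase DUSP2 (-1.64 ± 0.16) and the clock repressor BHLHE40 (-1.06 ± 0.12) also fell more than 2-fold. FOS, the partner of JUN, was low and rose, from 6.25 and 5.94 to 8.31 and 10.1 CPM (0.60 ± 0.16, adjusted p = 0.0066), and was not called without 5-FU then 3-MB-PP1 replicate 2 (0.44, adjusted p = 0.13) or by DESeq2. CYR61, a matricellular protein gene, was the other member that rose (0.43 ± 0.11), and without 5-FU then DMSO replicate 1 it was not called (0.31, adjusted p = 0.087). EGR1, a zinc finger factor, was not called (0.23 ± 0.11, adjusted p = 0.13). The strip plot of the lists shows the early genes spread from -1.78 to 0.71.

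**Figure D3:**
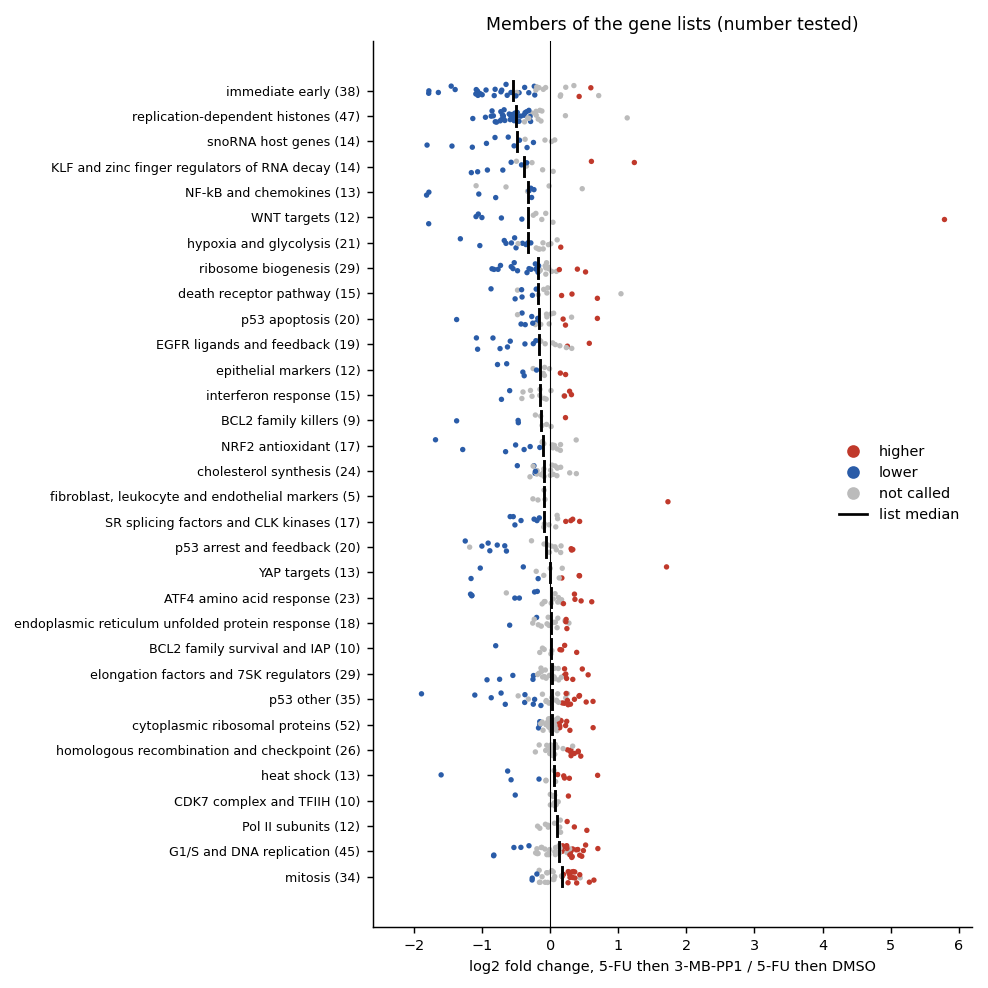
Members of the 32 gene lists by their log2 fold change with 3-MB-PP1 after 5-FU. Each row is a list with its number of tested members, each point a member (red rose, blue fell, grey not called), and the black tick is the list median. Immediate early genes (median -0.54), replication-dependent histones (-0.50) and snoRNA host genes (-0.49) lie lowest, and mitosis genes (0.17) highest.

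Ligands and feedback genes of the EGF receptor pathway fell more often than they rose. In that list 9 of 19 tested members fell and 2 rose (17.2% and 15.7% of all genes), at a median of -0.16. DUSP6, the phosphatase that switches off the ERK kinase, stood at 234 and 241 CPM after 5-FU alone and at 112 and 115 CPM with 3-MB-PP1 (-1.07 ± 0.07, adjusted p = 1.5e-11), below the DMSO libraries at 211 and 255 CPM. ERRFI1, an inhibitor of the receptor, went from 855 and 833 to 467 and 476 CPM (-0.84 ± 0.05, adjusted p = 1.8e-12). The receptor gene EGFR, which overlaps another gene, fell (-0.74 ± 0.07), as did AREG, the ligand amphiregulin, whose symbol lies at several places (-0.63 ± 0.06). The 2 members that rose were the ligand gene TGFA (0.25 ± 0.05) and PHLDA1 (0.57 ± 0.05).

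Other regulators moved in both directions. Of 14 KLF factors and zinc finger regulators of RNA decay, 7 fell and 2 rose (17.2% and 15.7% of all genes), at a median of -0.38. KLF13 (-1.06 ± 0.07), KLF16 (-0.92 ± 0.08), KLF5 (-0.69 ± 0.06) and the decay factor ZFP36L2 (-1.16 ± 0.12) fell. TOB1, an adaptor of the CCR4-NOT deadenylase, rose from 66.9 and 83 to 112 and 116 CPM (0.61 ± 0.09, adjusted p = 1.3e-05). KLF7 rose at the edge of detection, from 21 to 40 counts over 2 libraries each, and lost its call by DESeq2 and without 5-FU then DMSO replicate 2 or 5-FU then 3-MB-PP1 replicate 1 (adjusted p up to 0.24). Of the 12 tested WNT targets 6 fell, among them MYC, EPHB3 (-1.09 ± 0.23) and SOX9 (-1.0 ± 0.07), and 1 rose. The member that rose was LGR5, the intestinal stem cell receptor, with 0 and 1 counts after 5-FU alone and 24 and 30 with 3-MB-PP1, a count ratio of 67.2 (95% exact interval 11.6 to 2700, counting error only). LGR5 averaged 0.038 CPM in DMSO and 0.030 CPM after 5-FU alone. It thus passed the count filter only through the groups with 3-MB-PP1, which favours a rise, and the interval does not allow for that.

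Genes of the NRF2, hypoxia and NF-kB responses fell more often than they rose. HMOX1, the heme oxygenase of the NRF2 response (chr22:35777060-35790207, plus strand, hg19), stood at 127 and 127 CPM after 5-FU alone and at 38.8 and 40.3 CPM with 3-MB-PP1 (-1.68 ± 0.07, adjusted p = 1.2e-15). OSGIN1, an oxidative stress growth inhibitor, fell too (-1.28 ± 0.12), followed by GCLC, which makes glutathione precursor (-0.65 ± 0.06), and SRXN1, sulfiredoxin (-0.51 ± 0.06). The NRF2 list had 7 of 17 tested members falling and 0 rising (17.2% and 15.7% of all genes), at a median of -0.11. Of 21 hypoxia and glycolysis genes 11 fell and 1 rose, the median being -0.33. ADM, the vasodilator peptide adrenomedullin, went from 52.5 and 48.9 to 19.6 and 21 CPM (-1.32 ± 0.10, adjusted p = 1.9e-10), and the angiogenic factor VEGFA from 37.6 and 30.5 to 17.7 and 15.6 CPM (-1.03 ± 0.12, adjusted p = 4.7e-07). SLC2A1, the glucose transporter GLUT1, which overlaps another gene, fell as well (-0.65 ± 0.05). LDHA, lactate dehydrogenase, was the one that rose (0.16 ± 0.05), and it was not called when any of 3 libraries was left out (adjusted p up to 0.14).

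ATF4, the transcription factor of the amino acid response, fell from 233 and 247 to 103 and 111 CPM (-1.17 ± 0.06, adjusted p = 1.1e-13). In DMSO it stood at 287 and 303 CPM. Its list split, with 7 of 23 tested members falling and 5 rising (17.2% and 15.7% of all genes). The list median of 0.02 was -0.10 under spike-in scaling. STC2, a secreted glycoprotein (-1.15 ± 0.07), and CEBPB, a bZIP transcription factor (-1.15 ± 0.09), fell with ATF4, while the leucine sensor SESN2 (0.36 ± 0.07) and the glycyl-tRNA synthetase GARS (0.36 ± 0.06) rose. NF-kB targets had 8 of 13 tested members falling and 0 rising, at a median of -0.33. Among these were the adhesion molecule ICAM1, from 33 and 35 to 14.5 and 18.4 CPM (-1.05 ± 0.11, adjusted p = 5.6e-08), and the apoptosis inhibitor BIRC3, from 8.36 and 10.5 to 5.62 and 5.25 CPM (-0.80 ± 0.17, adjusted p = 0.00074). IL8, the chemokine now named CXCL8, was lower still at 1.91 and 3.3 and then 0.396 and 1.08 CPM (-1.81 ± 0.41, adjusted p = 0.0015), and without 5-FU then DMSO replicate 2 it was -1.36 (adjusted p = 0.057).

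Promoter windows were searched for a TATA motif. RefSeq promoter windows (250 bases before to 50 after the start, GRCh38.p14) were matched by symbol for 10154 of the 15704 tested genes (64.7%) and for 116 of the 212 that fell more than 2-fold (54.7%). That coverage is under 80%, which voids any comparison of motif shares between gene sets, so the shares are given only as background. The letters TATAAA were searched on both strands. They occurred on either strand in 11.5% of all 35116 windows of the table, and on the gene's own strand with their first base 45 to 10 bases before the start in 2.5% of all windows. For tested genes with a window the second share was 1.93%. Of the 93 genes named here that fell, 71 have a window and 13 of these hold the motif in that range. These genes were named partly for the size of their change in these data. The 13 therefore cannot be set beside the shares above. The 5 shown were picked from these because they hold it, so they say nothing of how often it occurs. The stretches run from 60 bases to 1 base before the start, 5′ to 3′ on the gene's strand, with the motif in capitals, and show where in the core promoter it lies.
ADM (chr11:10305013-10305072, + strand): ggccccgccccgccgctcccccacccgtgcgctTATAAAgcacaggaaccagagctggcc
ANGPTL4 (chr19:8364095-8364154, + strand): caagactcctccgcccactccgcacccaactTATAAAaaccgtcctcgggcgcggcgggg
ATF4 (chr22:39520499-39520558, + strand): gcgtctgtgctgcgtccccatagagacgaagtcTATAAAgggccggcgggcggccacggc
ICAM1 (chr19:10271060-10271119, + strand): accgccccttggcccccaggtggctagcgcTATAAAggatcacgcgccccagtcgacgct
GDF15 (chr19:18386098-18386157, + strand): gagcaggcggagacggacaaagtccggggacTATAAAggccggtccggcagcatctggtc
ADM, ANGPTL4, ATF4, ICAM1 and GDF15 changed by -1.32, -1.35, -1.17, -1.05 and -0.66 on the log2 scale, and the motif began 27 to 30 bases before the start in each. A match of letters is a description and not evidence of a working site. MYC, IER3 and HMOX1 have no window in the table.

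Chaperone genes moved in both directions. HSPA8, the constitutive HSC70 chaperone (chr11:122928200-122932901, minus strand, hg19), was the most abundant transcript with a more than 2-fold fall. It stood at 2779.9 and 2974 CPM after 5-FU alone and at 946 and 951 CPM with 3-MB-PP1 (-1.6 ± 0.04, adjusted p = 9.1e-19), against 3668 and 3798 CPM in DMSO. HSP90AA1, the inducible HSP90, went from 1809 and 1973 up to 3089.7 and 3043 CPM (0.70 ± 0.07, adjusted p = 5e-08). HSPA1A (-0.62 ± 0.06) and HSPA1B (-0.57 ± 0.06), near-identical HSP70 copies whose reads cannot be split with certainty, fell, while the HSP110 gene HSPH1 rose (0.28 ± 0.05). Of 13 heat shock genes 5 rose and 4 fell (15.7% and 17.2% of all genes), with a median of 0.06 that spike-in scaling turned to -0.05.

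The transcription machinery itself changed in single components. CDK7 stood at 81.8 and 88.4 CPM after 5-FU alone and at 57.7 and 61.6 CPM with 3-MB-PP1 (-0.51 ± 0.07, adjusted p = 2.2e-06), and no library of one group overlapped the other. Its partners CCNH (0.07 ± 0.09, adjusted p = 0.6) and MNAT1 (0.06 ± 0.09, adjusted p = 0.65) were not called. Of the 10 tested genes of the CDK7 complex and TFIIH, CDK7 was the one that fell and GTF2H5, the small p8 subunit, the one that rose (0.27 ± 0.09), a call lost whenever any of the 4 libraries was left out (adjusted p up to 0.095). POLR2A, the catalytic subunit of RNA polymerase II, rose from 190.2 and 175 to 282 and 248 CPM (0.54 ± 0.07, adjusted p = 1.1e-06). POLR2K (0.36 ± 0.08) and POLR2C, which overlaps another gene (0.25 ± 0.06), were the other 2 of 12 Pol II subunits that rose, and 0 fell (15.7% and 17.2% of all genes). Their list median of 0.10 was -0.01 under spike-in scaling.

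Elongation factors were a list of 29 tested genes. CCNT1 and CCNT2, the cyclins of the elongation kinase P-TEFb, rose from 147 and 164 to 214 and 218 CPM (0.47 ± 0.06, adjusted p = 7.5e-07) and from 53.5 and 58 to 81 and 83.2 CPM (0.56 ± 0.07, adjusted p = 7.3e-07). MEPCE, which caps the 7SK RNA that holds P-TEFb inactive, fell from 52.9 and 48.6 to 27.2 and 26.1 CPM (-0.93 ± 0.08, adjusted p = 2.9e-09). HEXIM1, the protein inhibitor in that complex, fell slightly (-0.25 ± 0.08) and lost its call when any of the 4 libraries was left out (adjusted p up to 0.075). WHSC2, the NELFA subunit of the pausing factor NELF, fell (-0.74 ± 0.08), as did the polymerase kinase genes CDK12 (-0.55 ± 0.06) and CDK13 (-0.24 ± 0.07), CDK13 not without 5-FU then 3-MB-PP1 replicate 2 (-0.17, adjusted p = 0.16). In this list 7 of 29 tested members rose and 5 fell (15.7% and 17.2% of all genes), at a median of 0.02 that spike-in scaling turned to -0.09.

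Several genes for RNA-binding or RNA-processing proteins were among the largest rises of transcripts of at least 100 CPM. CSTF3, a subunit of the cleavage stimulation factor of 3′ end processing, rose from 76.4 and 79.7 to 149 and 156 CPM (0.97 ± 0.06, adjusted p = 5.5e-12). RBBP6, another 3′ end processing factor, rose from 93.6 and 94.8 to 167 and 161 CPM (0.80 ± 0.06, adjusted p = 1.1e-10). RBM12B, which overlaps another gene, rose as well (0.83 ± 0.06). SR splicing factors and CLK kinases moved in both directions: 7 of 17 tested members fell and 4 rose (17.2% and 15.7% of all genes). SRSF2, which overlaps another gene (-0.59 ± 0.05), SRSF7 (-0.54 ± 0.05) and SRSF3 (-0.43 ± 0.05) were among those that fell, and TRA2A, CLK2, CLK3 and CLK4 were those that rose (0.30, 0.33, 0.23 and 0.43). Each of these 4 calls was lost without at least 1 library (adjusted p up to 0.067, 0.054, 0.088 and 0.12).

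Genes of mitosis and replication rose more often than they fell, and histone genes fell. Mitotic genes rose in 16 of 34 cases and fell in 3 (15.7% and 17.2% of all genes), at a median of 0.17 (0.06 under spike-in scaling). HMMR, a spindle protein gene, rose from 35 and 38.3 to 56.6 and 58.1 CPM (0.64 ± 0.07, adjusted p = 1.5e-07), still under its DMSO mean of 141 CPM. BUB1, a spindle checkpoint kinase (0.43 ± 0.06), NUF2, a kinetochore subunit (0.58 ± 0.10), and BIRC5, survivin (0.39 ± 0.05), rose too. CDC25B (-0.26 ± 0.06), BUB1B, which overlaps another gene (-0.26 ± 0.06), and UBE2C (-0.19 ± 0.07) were the 3 that fell, UBE2C not by DESeq2, nor without 5-FU then DMSO replicate 1 (-0.14, adjusted p = 0.2) or 5-FU then 3-MB-PP1 replicate 1 (-0.15, adjusted p = 0.22).

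Replication genes rose in 18 of 45 cases and fell in 5 (15.7% and 17.2% of all genes), with a median of 0.14 (0.02 under spike-in scaling). TYMS, the target enzyme of 5-FU, rose from 98.8 and 101 to 159.8 and 165 CPM (0.70 ± 0.10, adjusted p = 1.5e-05), although its span overlaps another gene. Among the 5 that fell were the phosphatase CDC25A from 21.2 and 22 to 13.8 and 10.6 CPM (-0.83 ± 0.11, adjusted p = 3.4e-06), cyclin E1 (CCNE1) from 28.5 and 30.4 to 14.8 and 18.4 CPM (-0.83 ± 0.10, adjusted p = 1.1e-06) and the licensing factor CDT1 from 30.3 and 28.3 to 19.8 and 20.7 CPM (-0.53 ± 0.09, adjusted p = 7e-05). The other 2 that fell were SLBP, the histone mRNA binding protein (-0.43 ± 0.07), and GINS3 (-0.31 ± 0.12), whose adjusted p of 0.049 did not hold in 13 alternative settings besides spike-in scaling (up to 0.2). Replication-dependent histone genes, whose mRNAs SLBP protects, fell in 35 of 47 cases and rose in 0, with a median of -0.50. HIST2H3D went from 37.1 and 29.3 to 16.1 and 20.5 CPM (-0.85 ± 0.11, adjusted p = 2.7e-06) and HIST3H2BB from 17.3 and 14.8 to 8.07 and 9.5 CPM (-0.87 ± 0.13, adjusted p = 1.5e-05), and near-identical histone copies can share reads. Genes of homologous recombination and checkpoint signalling rose in 8 of 26 cases and fell in 0. Their list median of 0.05 was -0.06 under spike-in scaling. Among those that rose were BRCA1 at 0.41 ± 0.10 (adjusted p = 0.0024), ATR at 0.36 ± 0.06 (adjusted p = 0.00013) and FANCD2, which overlaps another gene, at 0.45 ± 0.07 (adjusted p = 3.9e-05). BRCA1 was not called without 5-FU then DMSO replicate 1 (0.31, adjusted p = 0.055).

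MCL1, a short-lived BCL2 relative, stood at 274 and 275 CPM after 5-FU alone and at 302 and 305 CPM with 3-MB-PP1 (0.14 ± 0.05, adjusted p = 0.03). CFLAR, the caspase-8 inhibitor FLIP, which overlaps another gene, stood at 117 and 114 and then 125 and 134 CPM (0.17 ± 0.06, adjusted p = 0.032). Neither call was firm: MCL1 lost its call when any of the 4 libraries was left out, CFLAR when any of 3 was (adjusted p up to 0.18 and 0.33). Of the 10 tested survival and IAP genes 4 rose and 1 fell (15.7% and 17.2% of all genes), and the one that fell was BIRC3 (-0.80). The others that rose were BIRC5 and BIRC2 (0.21 ± 0.07), BIRC2 not by DESeq2, without either library of 5-FU then 3-MB-PP1, or without 5-FU then DMSO replicate 1 (0.09, adjusted p = 0.39). In the death receptor pathway 6 of 15 tested members fell and 3 rose, at a median of -0.17. TNFRSF1A, the main TNF receptor, went from 104 and 104 to 55 and 58.5 CPM (-0.87 ± 0.06, adjusted p = 2.4e-10). RIPK1, with TNFRSF10D and CFLAR, was the third that rose (0.32 ± 0.07), and without 5-FU then 3-MB-PP1 replicate 2 it was 0.25 (adjusted p = 0.058). Among the 9 tested BCL2 family killers, BBC3, BIK (-0.47 ± 0.12) and BOK, which overlaps another gene (-0.47 ± 0.09), fell, and PMAIP1 was the one that rose. BIK was not called without 5-FU then 3-MB-PP1 replicate 2 (-0.42, adjusted p = 0.056).

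Ribosome biogenesis genes fell more often than they rose, and ribosomal protein genes changed little. Of 29 ribosome biogenesis genes 16 fell and 3 rose (17.2% and 15.7% of all genes), at a median of -0.18. POLR1C, a subunit of RNA polymerases I and III, went from 85.1 and 85.5 to 48.6 and 47.8 CPM (-0.82 ± 0.06, adjusted p = 6e-10), and the assembly factors NOP16 (-0.77 ± 0.07) and RRS1 (-0.73 ± 0.07) and the polymerase I subunit POLR1B (-0.57 ± 0.06) followed. The 3 that rose were the nucleolar methyltransferase FBL (0.40 ± 0.07), CIRH1A, also named UTP4 (0.52 ± 0.11), and NOLC1 (0.14 ± 0.05). CIRH1A was not called by DESeq2 (adjusted p = 0.055), nor NOLC1 when any of 3 libraries was left out (up to 0.17). Cytoplasmic ribosomal protein genes rose in 10 of 52 cases, a share close to the 15.7% of all genes. They fell in 3 cases (RPL10A, RPL13 and RPL18), against 17.2% of all genes. Changes of the 52 genes ranged from -0.17 to 0.63. Their median of 0.03 was -0.08 under spike-in scaling, and the 3 falls each depended on at least 1 library (adjusted p up to 0.062, 0.092 and 0.17).

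Host genes of small nucleolar RNAs, whose spliced transcripts are quickly degraded, mostly fell. In that list 10 of 14 tested members fell and 0 rose (17.2% and 15.7% of all genes), at a median of -0.49. SNHG1 went from 163 and 172 to 72.1 and 79.5 CPM (-1.14 ± 0.06, adjusted p = 9.8e-13), GAS5 from 227 and 221 to 116 and 118 CPM (-0.94 ± 0.06, adjusted p = 6.7e-12) and SNHG12 from 45.7 and 45.7 to 12.8 and 13.3 CPM (-1.81 ± 0.09, adjusted p = 1.7e-13). GAS5 and SNHG12 overlap other genes. Entries of box C/D snoRNAs (symbols starting SNORD) fell in 31 of 73 tested cases and rose in 0, with a median of -0.68. Entries of box H/ACA snoRNAs (SNORA) fell in 7 of 71 and rose in 5, with a median of 0.01. Whether the reads of these entries came from the snoRNAs or from host transcripts was not tested.

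Rises of more than 2-fold were mostly of genes at low levels, as the counts by level show. Of the 145 tested genes under 0.5 CPM in both DMSO and 5-FU alone, 100 rose and 0 fell, a split that the count filter favours, since such genes were tested only where 3-MB-PP1 groups held counts. TG, the thyroglobulin gene, which overlaps another gene, had 4 and 6 counts after 5-FU alone and 239 and 232 with 3-MB-PP1, a count ratio of 58.6 (95% exact interval 31.6 to 123). NEB, the giant muscle protein nebulin (chr2:152341853-152591001, minus strand, hg19), went from 19 and 31 counts to 433 and 346, a ratio of 19.4 (14.6 to 26.4). MGAM, an intestinal maltase, went from 29 counts over its libraries to 363, a ratio of 15.6 (10.7 to 23.6). Per length, in the authors' RPKM, these transcripts stayed low, at 2.17 for TG, 1.16 for NEB and 2.18 for MGAM with 3-MB-PP1, against 62.1 for MYC in the same libraries.

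Other genes of this kind were the cilium gene C10orf79 (2.71 ± 0.20, adjusted p = 1.7e-10), the divergent transcript NUP50-DT (2.56 ± 0.15, adjusted p = 4.6e-12) and ADAMTSL4, a secreted matrix protein gene (2.14 ± 0.23, adjusted p = 9.6e-08). KRCC1 rose at a higher level, from 6.19 and 8.76 to 30.3 and 34.1 CPM (2.1 ± 0.13, adjusted p = 7.8e-12), and the THAP zinc finger genes THAP10 (1.91 ± 0.20) and THAP2, which overlaps another gene (1.99 ± 0.17), rose almost as much. CTSK, the protease cathepsin K (1.86 ± 0.25), the dynein gene DNAH10 (1.86 ± 0.17) and the endothelial receptor gene KDR (1.73 ± 0.29, 0.988 and 0.96 then 3.01 and 3.48 CPM) were further members. Among genes of at least 5 CPM large falls were those of the neural transcription factor gene POU4F2 (7.31 and 6.0 then 2.06 and 0.849 CPM, -2.19 ± 0.35, adjusted p = 3.3e-05), the G protein regulator RGS16 (13.5 and 12.8 then 3.56 and 2.39 CPM, -2.14 ± 0.19, adjusted p = 4.8e-09), and the transcription factor SOX4 (81.1 and 74.4 then 21.5 and 21.1 CPM, -1.87 ± 0.08, adjusted p = 1.4e-14). CAMKK1, RAB26 and HS3ST1, a kinase, a small GTPase and a heparan sulfate sulfotransferase, changed by -1.81, -1.71 and -1.6.

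Short genes fell more often than long ones. Small RNAs and unnamed loci apart, genes were divided by genomic span into 5 groups of equal number (quintiles). In the shortest quintile (119 to 7783 bases, 2944 genes) 22.5% fell and 9.21% rose, and the median change was -0.06. In the longest quintile (79778 to 2304636 bases, 2944 genes) 13.7% fell and 16.9% rose, with a median of 0.04. Falls of more than 2-fold numbered 79 in the shortest quintile and 16 in the longest. The quintiles also differed in level, with medians of 13.4 CPM in the shortest and 26.2 CPM in the longest. Among the 3 upper quintiles of level, where the medians were 47.2 and 52.6 CPM, 31.9% of the shortest quintile fell and 11.1% rose, against 18.3% and 19.1% of the longest. By exon length, 14.3% fell and 14.5% rose in the shortest quintile, and 18.2% and 19.1% in the longest. These shares are descriptions over genes, which are not independent replicates.

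**Figure D4:**
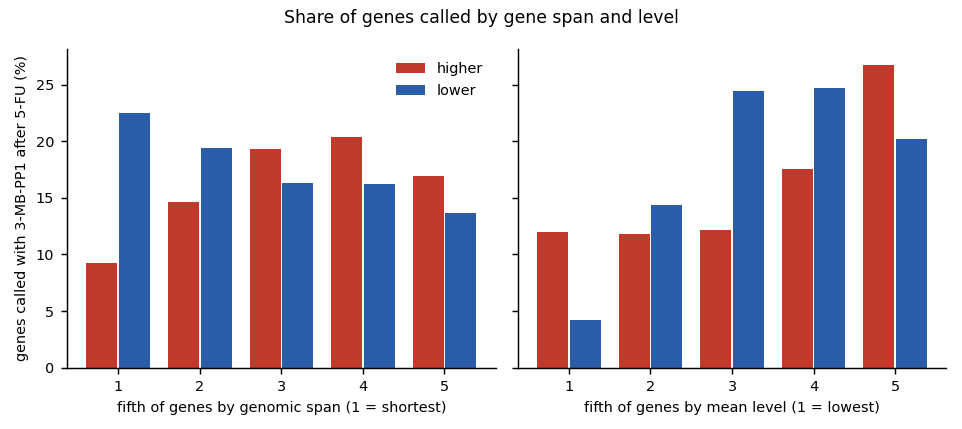
Share of genes that rose (red) or fell (blue) with 3-MB-PP1 after 5-FU, in percent of the genes of each quintile. The left panel divides genes by genomic span and the right panel by mean level over the 4 groups. The share that fell declines from 22.5% in the shortest quintile to 13.7% in the longest, and in the lowest quintile of level 12% rose and 4.18% fell.

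The effect of 3-MB-PP1 after 5-FU was then set beside its effect without 5-FU, a comparison that shares no library with it. With 3-MB-PP1 alone 1816 genes rose (11.6%) and 2655 fell (16.9%). Of the genes that fell after 5-FU, 59.7% also fell without it, which was 60.7% of those that fell alone. Of the genes that rose after 5-FU, 41.2% also rose without it, which was 56% of those that rose alone. Opposite calls were rare: 36 genes fell after 5-FU and rose alone, and 30 rose after 5-FU and fell alone. Over all genes both changes had a Pearson correlation of 0.726, a description only. SNHG12, NEB, TG and CDK7 were examples of like changes, with -1.81, 4.27, 5.84 and -0.51 after 5-FU and -2.07, 3.62, 6.02 and -0.42 alone.

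The interaction, the change after 5-FU minus the change without it, was called for 646 genes (4.11%): 314 below 0 and 332 above. Of the 314 below 0, 212 fell after 5-FU, and 114 of these were not called with 3-MB-PP1 alone. HMOX1 changed by -1.68 after 5-FU and by -0.23 alone (interaction -1.45 ± 0.11, adjusted p = 3.7e-09). MDM2 changed by -1.25 and -0.31 (interaction -0.93 ± 0.06, adjusted p = 1.7e-09) and CDKN1A by -0.89 and -0.22 (-0.67 ± 0.07, adjusted p = 5.6e-07). For BBC3 the interaction of -0.39 ± 0.19 was not called (adjusted p = 0.28), and for CDK7 it was -0.09 ± 0.09 (adjusted p = 0.69).

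HSPA8 changed by -1.6 after 5-FU and by -0.37 alone (interaction -1.23 ± 0.06, adjusted p = 8.4e-13), its level being 3733 CPM in DMSO and 2877 CPM after 5-FU alone. DUSP6, at 233 and 237 CPM in those groups, fell after 5-FU (-1.07) and rose alone (0.19, adjusted p = 0.031), an interaction of -1.25 ± 0.09 (adjusted p = 3.7e-09). The early gene list held 19 negative interactions and 0 positive ones among 38 genes, with medians of -0.54 after 5-FU and 0.15 alone. The EGF receptor feedback list, which shares DUSP6 with it, held 11 and 0 among 19. Over all genes 4.11% had an interaction called either way. BHLHE40 (-1.06 after 5-FU, 0.55 alone) and ANGPTL4, a lipase inhibitor (-1.35 and 0.66), fell after 5-FU and rose alone. VWA3A, MSH4 and IFNE, which overlaps another gene, rose in both settings and less after 5-FU (2.69, 1.2 and 1.27 against 5.17, 2.66 and 2.94).

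Of the 332 interactions above 0, 200 were of genes that rose after 5-FU, 168 of them not called with 3-MB-PP1 alone, and 110 were of genes that fell alone and were not called after 5-FU. Mitotic genes held 22 positive interactions and 0 negative ones among 34 (4.11% of all genes either way), with medians of 0.17 after 5-FU and -0.25 alone. The replication list held 17 positive and 2 negative among 45. With 5-FU alone, against DMSO, the medians of the mitosis and replication lists were -1.46 and -1.66. The libraries of 5-FU alone also enter the interaction, so no relation between these values was computed. INSIG1, a sterol-regulated brake on cholesterol synthesis, fell alone (-1.36) from 71.9 CPM and was not called after 5-FU (-0.25), where 5-FU alone had left 9.5 CPM. ARID5B, a chromatin regulator gene, behaved likewise (-1.19 alone, 0.20 after 5-FU), and RMI1, a dissolvasome subunit gene, rose after 5-FU (1.36) and was not called alone (0.31). Interactions depend on the scaling of all 8 libraries. Scaled to the spike-ins, whose share of the library differed between replicates, the median change of all genes was -0.12 after 5-FU and 0.19 alone. Under that scaling edgeR's quasi-likelihood test called 0 interactions. Only 75 of 15704 genes had an unadjusted p under 0.05 there, fewer than that threshold passes where nothing differs. DESeq2 with its own scaling called 379.

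**Figure D5:**
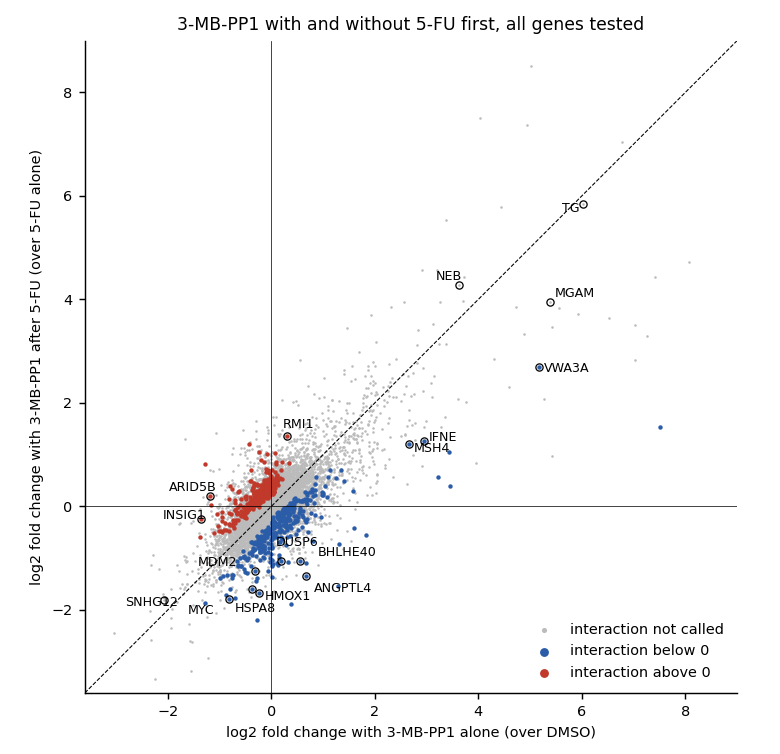
Change with 3-MB-PP1 after 5-FU (vertical, log2 fold change over 5-FU alone) against its change without 5-FU (horizontal, over DMSO) for all tested genes. Blue and red points are genes whose interaction was called below or above 0, grey points the others, and the dashed line marks equal changes. SNHG12, TG and NEB lie near the line, HMOX1, HSPA8 and DUSP6 lie below it, and INSIG1, ARID5B and RMI1 lie above it.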

How the data were processed

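RNA from HCT-116 cells was purified on RNeasy columns, depleted of ribosomal RNA with Ribo-Zero and sequenced from single ends, per the labels' protocols. The authors deposited 1 table per library with a raw read count and an RPKM value for each transcript and ERCC spike-in. Of tools and builds, TopHat2 2.0.13 and hg19 stand in the submitters' processing notes. How reads were counted, with which strand setting and annotation, is not given in the sources used here. From 41643 transcripts, the transcript with the highest mean count over the 8 libraries was kept per symbol, giving 23864 genes. The deposited counts of 15704 genes that passed edgeR's filterByExpr were TMM-scaled and tested in one model of 4 groups with edgeR 4.0.16 (glmQLFit, glmQLFTest; R 4.3.3), two-sided, with Benjamini-Hochberg adjustment. RPKM values were used only to set levels of different genes side by side. Of the tested genes, 3816 overlap another gene and 166 symbols lie at several places, so reads may be shared. Ratios of low counts carry exact 95% intervals that cover counting error only. The script was tested on simulated data.

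Members and gene lists were chosen with earlier results of these data known. Genes named are 21 fixed ones, the 12 largest changes each way among called genes of at least 5 CPM whose libraries did not overlap, the 6 largest each way at 100 CPM or more, up to 5 per list by size plus those called against the list's majority, and the 8 largest interactions each way. Some genes that the rule gives are not reported here. In the ranked choices, small RNAs and symbols at several places were left out. Alternatives were DESeq2 1.42.0, limma-voom (limma 3.58.1), RLE size factors, spike-in scaling, no count filter, the longest transcript, the 4 libraries alone, a replicate block and leaving out each library.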

Additional observations from a re-analysis of the deposited data

Results flagged for a closer look

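For 68 of the 171 genes named, the change with 3-MB-PP1 after 5-FU differed from its change without 5-FU. The test was of the difference itself (edgeR's quasi-likelihood interaction, adjusted p under 0.05), which called 4.11% of all genes. Genes were named partly for large changes or large interactions, so the counts here partly follow from that choice. Values are the log2 change after 5-FU minus that alone; 51 were below 0 and 17 above. Scaled to the spike-ins, none was called, and 29 lost the call in at least 1 other setting.

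Among p53 targets the interaction values were CDKN1A -0.67, MDM2 -0.93, PLK2 -0.47, CCNG1 0.31, TNFRSF10D -0.43, PMAIP1 -0.45 and TNFRSF10B -0.27. For other p53 targets they were LIF -1.13, GDF15 -0.46, PLXNB2 -0.28, DUSP4 -0.94 and DUSP5 -0.74. Early genes gave MYC -0.96, IER3 -1.07, HES1 -1.15, ZFP36 -1.12, JUN -1.2 and BHLHE40 -1.61. Genes of EGF receptor signalling gave DUSP6 -1.25, ERRFI1 -0.62, EGFR -0.73, AREG -0.64, TGFA -0.42 and PHLDA1 -0.28, and the transcription factor genes KLF13 -0.39, KLF5 -0.3 and SOX9 -0.85.

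In the stress lists the values were HMOX1 -1.45, OSGIN1 -0.81, ADM -0.58, VEGFA -0.57, ALDOC -1.48, SLC2A1 -0.46, STC2 -0.56, CEBPB -0.50 and XBP1 -0.48. For ALDOC the change after 5-FU was -0.67 and without 5-FU then DMSO replicate 1 it was -0.30 (adjusted p = 0.27). The chaperone genes gave HSPA8 -1.23, HSP90AA1 0.52, HSPA1A -0.41 and HSPA1B -0.3. Cell cycle and repair genes gave CCNE1 -0.68, HMMR 0.69, NUF2 0.59, BUB1 0.39, BIRC5 0.54, FANCD2 0.44 and BRCA1 0.49. The sterol regulator, the RNA-binding protein gene and the ribosomal protein genes gave INSIG1 1.11, RBM12B 0.49, RPL22 0.25 and RPS3A 0.22.

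Among the largest changes and the largest interactions the values were POU4F2 -1.91, SOX4 -0.58, RAB26 -0.84, HS3ST1 -0.80, VWA3A -2.48, ANGPTL4 -2.01, IFNE -1.67 and MSH4 -1.46 below 0, and ARID5B 1.39, RHOU 1.2, RBM20 1.11, MAP1LC3B2 1.1 and RMI1 1.05 above 0. The YAP target and epithelial genes gave F3 -1.17, NT5E -0.41, KRT19 -0.38 and CLDN7 -0.72. The change of CLDN7 after 5-FU was -0.40, and it was -0.25 (adjusted p = 0.14) without 5-FU then 3-MB-PP1 replicate 2 and -0.24 (adjusted p = 0.14) without 5-FU then DMSO replicate 1.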

How the results depend on the processing

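Fold changes were steadier than the number of calls. DESeq2 called 3378 genes after 5-FU (1565 of them higher), all among edgeR's 5169 and in the same direction, with 2676 genes for 3-MB-PP1 alone and 379 interactions. Scaled to the spike-ins, 53 genes were called after 5-FU (41 higher, 12 lower), 112 alone, 0 for the interaction and 3 of the 329 list genes called otherwise. The interactions of CCNG1, RPL22 and RPS3A then turned to -0.0527, -0.0770 and -0.1287, against 0.31, 0.25 and 0.22. The cause was not tested. Leaving out each library in turn gave 3338 to 5359 calls after 5-FU, 1452 to 2556 higher, 1886 to 2803 lower, 2992 to 4555 alone, 247 to 919 interactions and 252 to 340 list genes. Calls after 5-FU were 3338 without 5-FU then 3-MB-PP1 replicate 2. Higher genes numbered 1543 without 5-FU then 3-MB-PP1 replicate 1, 1452 without its replicate 2 and 1461 without 5-FU then DMSO replicate 1. Interactions numbered 401 and 280 without 5-FU then 3-MB-PP1 replicates 1 and 2, 324 without 5-FU then DMSO replicate 1, 352 without DMSO then 3-MB-PP1 replicate 1 and 247 without DMSO then DMSO replicate 1.

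Replicate numbers did not pair the samples (correlations of deviations -0.06 to 0.05). With the replicate block 5226 genes were called after 5-FU, 5124 of them as without it, and 4513 alone and 675 interactions. Of the 162 called genes among the 171 named, 127 kept their call in all settings but spike-in scaling, under which 13 kept it and 162 kept their sign. Genes with a few counts per library, such as LGR5 and KLF7, are limited by depth.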

Other observations

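Several lists remain, to be read against the 15.7% of all genes that rose and the 17.2% that fell. Of 13 tested YAP targets 4 rose and 4 fell, at a median of 0.00 that was -0.11 under spike-in scaling. F3, the coagulation tissue factor, fell from 64.4 and 76.4 to 31.7 and 31.3 CPM (-1.16 ± 0.10, adjusted p = 6.9e-09), and NT5E, the ectonucleotidase CD73, rose from 174 and 181 to 240.2 and 239 CPM (0.43 ± 0.06, adjusted p = 4.4e-06). Of 12 tested epithelial markers 5 fell and 2 rose. Among them KRT19, a keratin of simple epithelia, fell from 1096 and 1025 to 699 and 664 CPM (-0.64 ± 0.05, adjusted p = 7.3e-10), and EPCAM, an adhesion molecule, rose from 166 and 169 to 195 and 197 CPM.

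Of 24 cholesterol synthesis genes 4 fell and 0 rose, a share that fell close to that of all genes, with SQLE, squalene epoxidase, at -0.48 ± 0.08 (adjusted p = 6.8e-05). Interferon response genes fell in 2 of 15 cases and rose in 3, at a median of -0.15, with OASL at -0.71 ± 0.24 (adjusted p = 0.027) and OAS3 at 0.31 ± 0.11 (adjusted p = 0.03). Both calls were lost by DESeq2 and without any of 5-FU then 3-MB-PP1 replicate 2 and 5-FU then DMSO replicates 1 and 2 (adjusted p up to 0.25 and 0.31), and OAS3 was 0.20 (adjusted p = 0.31) without the first of these. In the endoplasmic reticulum unfolded protein response 3 of 18 rose and 2 fell, the transcription factor XBP1 being the lowest (-0.59 ± 0.09, adjusted p = 9.1e-06). Zinc finger genes (symbols starting ZNF) on chromosome 19 rose in 37 of 215 cases and fell in 30, and those elsewhere rose in 44 of 251 and fell in 66. Antisense and divergent transcripts rose in 25 of 203 cases and fell in 11.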
